A study of Mus musculus with 6 samples.

Results

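The genes that build ribosomes were examined in BV2 cells (immortalized mouse microglia) after exposure to sTREM-1, the soluble form of triggering receptor expressed on myeloid cells-1. The 50 genes were taken by symbol from a list of nucleolar assembly factors and RNA polymerase I components, and all 50 were among the 46095 gene symbols of the count table. Cells of the CON group were left untreated, and cells of the sTREM-1 group were given the recombinant protein (1 μg/mL) and held for 6 h, with 3 libraries in each group. All 6 libraries came from the same line with no other agent or allele. The labels do not state whether the libraries of a group came from separate cultures, and the methods give n = 4 where 3 libraries a group were analysed here, so the p-values measure the spread between these libraries, which may be technical. A cell line in culture holds no neurons or other brain cells that microglia normally meet.

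Ribosome production starts in the nucleolus, where RNA polymerase I transcribes a long precursor of the 18S, 5.8S and 28S ribosomal RNAs. Small nucleolar ribonucleoproteins of the box C/D and box H/ACA classes modify the precursor, the small subunit (SSU) processome cuts out and folds the 18S part, and separate sets of factors assemble the 40S and 60S subunits. The pathway is known to follow growth signals such as MYC and mTOR, and cells of the macrophage lineage use it when they grow or are activated.

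The libraries held between 40070633 and 45877107 counts, and the 50 genes took between 1.03% and 1.08% of the counts in each of them. Of 12 microglia and macrophage markers, 11 exceeded 1 CPM (counts per 1000000 counts of the library, with TMM factors), while Aif1 had no count in any library and Cx3cr1 averaged 0.945 CPM in CON and 1.77 CPM in sTREM-1. The summed level of these markers was 3319 to 3343 CPM in CON and 3594 to 3654 CPM in sTREM-1. Csf1r, the receptor gene for colony stimulating factor 1, carried most of that difference (521 CPM in CON and 753 CPM in sTREM-1), and the sum of the others was 2797 to 2826 CPM in CON and 2837 to 2884 CPM in sTREM-1. Of the 11 tested markers, 6 were called higher, 4 were not called and Fcer1g was lower. Summed neuron markers did not exceed 0.341 CPM and summed astrocyte markers did not exceed 1.26 CPM in any library. Oligodendrocyte markers summed to between 5.58 and 7.91 CPM and those of fibroblasts and endothelium to between 2.05 and 3.12 CPM, and their part in the results below was not tested. Bulk RNA does not separate fewer cells that express a gene from less RNA per cell.

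A sequence feature these genes are known for is the E-box, the letters CACGTG that MYC and related factors can bind. In RefSeq promoters of GRCm38.p6, from 250 bases before to 50 bases after the annotated start, 45 of the 50 genes had a sequence and 10 of these (22.2%) held CACGTG, whose reverse strand reads the same. Of all 32851 promoters of that length, 7.2% held it. Counted by gene symbol, as for the 50 genes, 8.1% of 27025 symbols held it. It occurred in 4 of the 10 genes that were higher in sTREM-1, in 3 of the 16 that were lower and in 3 of the other 19 with a promoter, so the letters were found in both directions of change. The promoters of a pair of higher genes and a pair of lower genes are shown so that the position of the motif can be compared, with the E-box in capitals. Mybbp1a lies at chr11:72441077-72441376 on the plus strand and Pes1 at chr11:3963725-3964024 on the plus strand, and both were higher. Utp20 lies at chr10:88826765-88827064 on the minus strand and Tsr1 at chr11:74897830-74898129 on the plus strand, and both were lower.
Mybbp1a: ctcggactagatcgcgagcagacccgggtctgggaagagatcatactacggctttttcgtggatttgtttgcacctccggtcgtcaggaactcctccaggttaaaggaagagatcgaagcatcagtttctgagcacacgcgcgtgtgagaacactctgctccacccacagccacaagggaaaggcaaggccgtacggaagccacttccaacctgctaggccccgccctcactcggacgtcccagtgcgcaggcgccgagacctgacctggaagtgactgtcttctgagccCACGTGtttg
Pes1: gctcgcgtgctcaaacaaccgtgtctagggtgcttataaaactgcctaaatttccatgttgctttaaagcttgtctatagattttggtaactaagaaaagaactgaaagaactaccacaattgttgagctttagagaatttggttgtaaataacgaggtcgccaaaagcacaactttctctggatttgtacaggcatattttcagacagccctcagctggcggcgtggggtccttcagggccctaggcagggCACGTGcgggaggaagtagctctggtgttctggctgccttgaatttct
Utp20: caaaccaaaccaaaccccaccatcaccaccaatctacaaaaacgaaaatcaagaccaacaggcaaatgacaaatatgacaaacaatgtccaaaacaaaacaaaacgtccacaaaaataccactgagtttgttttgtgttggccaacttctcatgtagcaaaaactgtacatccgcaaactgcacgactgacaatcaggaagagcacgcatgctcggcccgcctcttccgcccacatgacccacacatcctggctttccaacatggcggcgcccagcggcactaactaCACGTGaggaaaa
Tsr1: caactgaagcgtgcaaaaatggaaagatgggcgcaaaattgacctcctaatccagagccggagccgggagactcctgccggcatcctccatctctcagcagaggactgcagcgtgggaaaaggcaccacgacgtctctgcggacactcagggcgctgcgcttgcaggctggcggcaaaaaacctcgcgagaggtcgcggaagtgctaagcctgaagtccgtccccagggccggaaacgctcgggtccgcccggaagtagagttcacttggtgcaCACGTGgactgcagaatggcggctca
The E-box began 41 bases into the transcript in Mybbp1a, 3 bases in Pes1, 38 bases in Utp20 and 25 bases in Tsr1, counting the annotated start as base 1. The ETS letters CCGGAAG or their reverse complement were in 16 of the 45 genes (35.6%), against 8.9% of all promoters and 9.9% of symbols. They were held by 4 of the 10 higher and 5 of the 16 lower genes. The GC box GGGCGG or its reverse complement was in 34 of 45 (75.6%), against 35.7% of all promoters and 38.2% of symbols. It was in 7 of the 10 higher and 11 of the 16 lower genes. TATAAA on either strand was in 2 of 45 (4.4%), against 13.6% of all promoters and 15.7% of symbols. The backgrounds took in all promoters, whether or not the gene had counts in these cells, while all 50 genes had counts in every library. The shares are therefore not matched for expression. The letters mark matches only, and binding was not measured.

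Compared with the CON group, 26 of the 50 genes changed in the sTREM-1 group at an adjusted p under 0.05 (edgeR quasi-likelihood test, Benjamini-Hochberg adjustment over all 14120 tested genes), and all 50 passed the filter on low counts. The genes moved in both directions, with 10 higher and 16 lower. Over all tested genes 31.0% were called, 16.6% higher and 14.3% lower, and among the 9409 genes in the same range of mean level (7.91 to 2463 CPM) 41.9% were called, so the share of 52% is read against those shares. The changes were small. The log2 fold change ran from -0.34 for Nop10 to 0.26 for Polr1c, and the median size of change in either direction was 1.07-fold against 1.09-fold over all tested genes. A 1.2-fold change was reached by 3 of the 50 genes, all of them lower, namely Nop10, Gar1 and Utp20. Over all tested genes 3345 of 14120 reached it, in a comparison not matched for level. Without sTREM-1 replicate 1, 18 of the 50 genes (36%) were called, 6 higher and 12 lower, against 25.7% of the 14401 genes tested.

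**Figure D1:**
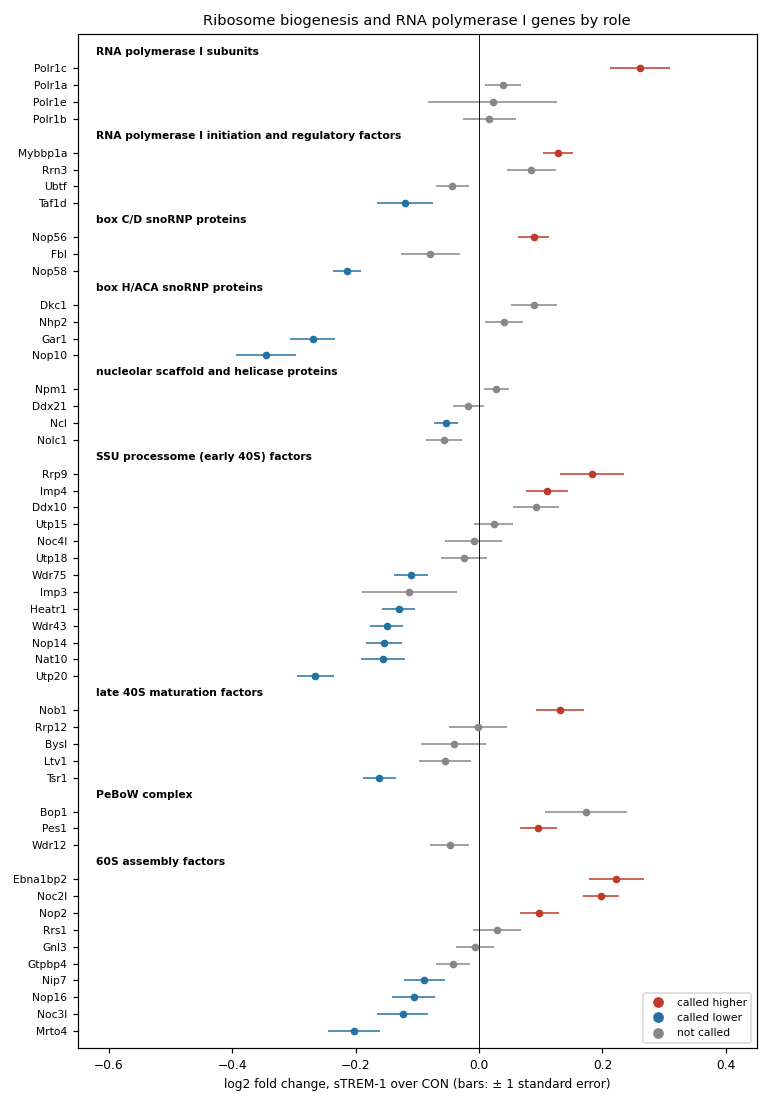
Log2 fold change of each of the 50 genes in sTREM-1 over CON, grouped by role, with bars of 1 standard error (3 libraries per group). Red points passed the test as higher, blue points as lower and grey points were not called, and every role except the RNA polymerase I subunits holds genes on each side of 0.

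The list as a whole hardly shifted. Its median log2 fold change was -0.02, and that of all tested genes was -0.0017. Taken library by library as the median log2 ratio of the 50 genes to their CON mean, the values were -0.00036, -0.0109 and 0.0146 in CON and -0.0155, -0.048 and 0.000596 in sTREM-1. The groups overlapped, and sTREM-1 replicate 2 was the lowest of the 6. The median coefficient of variation of the 50 genes within a group was 2.25% in CON and 3.00% in sTREM-1, against 4.84% and 4.79% over all tested genes. The groups did not overlap for 28 of the 50 genes, 13 higher and 15 lower, against 40.7% of all tested genes. Of the 14120 tested genes, 9409 lay in the range of mean level of the 50, so neither comparison is matched for level.

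**Figure D2:**
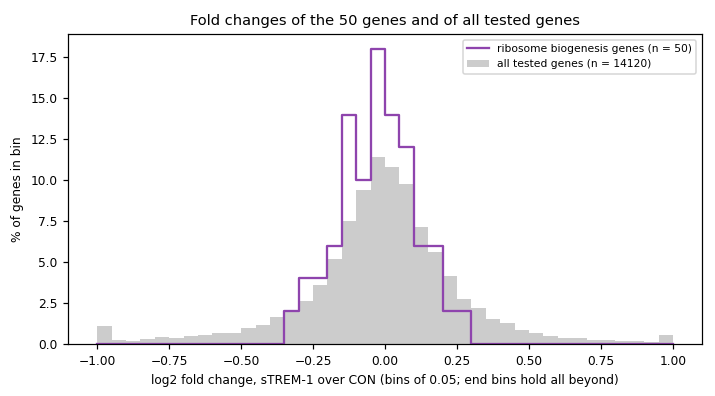
Percentage of genes in each bin of 0.05 in log2 fold change (sTREM-1 over CON), for the 50 genes (line) and all 14120 tested genes (grey); the end bins hold everything beyond. The 50 genes lie between -0.34 and 0.26, inside the wider spread of all genes.

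Between genes, levels were compared per kilobase of the longest protein-coding transcript, as means over CON. Npm1, which encodes the nucleolar histone chaperone nucleophosmin, stood highest with 1494 CPM per kilobase. Ncl, which encodes nucleolin, followed with 286, the box C/D core gene Nop56 with 145 and the H/ACA core gene Nhp2 with 113 CPM per kilobase. The lowest was Polr1e, a subunit gene of RNA polymerase I, with 2.63 CPM per kilobase, below Bysl with 9.42. Reads were not assigned by transcript here, so a gene whose cells use a shorter transcript has a higher level per kilobase than given.

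Among the RNA polymerase I subunits, 1 of 4 genes rose and none fell. Polr1c, which encodes a subunit shared with RNA polymerase III, had 33.4, 33.6 and 34.4 CPM in CON and 39.7, 40.3 and 41.5 CPM in sTREM-1. All sTREM-1 libraries lay above all CON libraries, the largest rise among the 50 genes (log2 fold change 0.26 ± 0.049 SE, edgeR adjusted p = 2.59e-05). Polr1a, which encodes the largest catalytic subunit, had a log2 fold change of 0.04, Polr1b, the second catalytic subunit, 0.02 and Polr1e 0.02, and their groups overlapped.

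Of the 4 initiation and regulatory factors, 1 rose and 1 fell. Mybbp1a, which encodes a nucleolar MYB-binding protein with a role in ribosomal RNA transcription and processing, had 438, 429 and 435 CPM in CON and 470, 461 and 492 CPM in sTREM-1. There was no overlap between groups, and the rise was 1.09-fold (log2 fold change 0.13 ± 0.024 SE, edgeR adjusted p = 1.98e-05). Taf1d, a subunit gene of the SL1 promoter selectivity complex, had 55.9, 58.0 and 64.1 CPM in CON and 55.2, 56.9 and 51.8 CPM in sTREM-1. The groups overlapped, since CON replicate 1 lay below sTREM-1 replicate 2, and the log2 fold change was -0.12 ± 0.046 SE (edgeR adjusted p = 0.0397). The Taf1d call rested on single libraries, with an adjusted p of 0.387 without CON replicate 3, 0.0704 without sTREM-1 replicate 1 and 0.208 without sTREM-1 replicate 3. It was also lost under DESeq2 (adjusted p = 0.0704) and under the correction for GC content and length, which moved the log2 fold change to -0.05 (adjusted p = 0.393). Exons of Taf1d overlap exons of the genes Cep295 and 4931406C07Rik on the other strand, both of which were higher in sTREM-1. Ubtf, which encodes the upstream binding factor that holds ribosomal DNA open, had a log2 fold change of -0.04, and Rrn3, whose product carries RNA polymerase I to the promoter, had 0.08 with groups that did not overlap (edgeR adjusted p = 0.0976).

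The box C/D proteins bind guide RNAs that direct 2′-O-methylation of ribosomal RNA, and their genes moved in opposite directions. Nop58 fell: it had 418, 426 and 420 CPM in CON and 368, 362 and 360 CPM in sTREM-1. The sTREM-1 libraries were all below the CON libraries, and the change was 1.16-fold lower with the smallest p of the 50 genes (log2 fold change -0.21 ± 0.023 SE, edgeR adjusted p = 5.11e-11). Nop56, whose product pairs with NOP58 in the same particle, had 279, 272 and 269 CPM in CON and 292, 281 and 298 CPM in sTREM-1. Again no library of CON reached the sTREM-1 range, a rise of 1.06-fold (log2 fold change 0.09 ± 0.025 SE, edgeR adjusted p = 0.00487). Fbl, which encodes the methyltransferase fibrillarin, ran from 55.5 to 65.8 CPM in CON and from 54.8 to 58.3 CPM in sTREM-1, a log2 fold change of -0.08 with overlapping groups.

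The box H/ACA proteins guide pseudouridylation, and Nop10 and Gar1 gave the largest falls of the 50 genes. Nop10, the smallest core protein of the particle, had 45.8, 46.7 and 47.9 CPM in CON and 34.6, 37.9 and 38.1 CPM in sTREM-1. The lowest CON library stood well above the highest sTREM-1 library, and the change was 1.27-fold lower (log2 fold change -0.34 ± 0.048 SE, edgeR adjusted p = 6.8e-08). Gar1, which encodes the protein that helps the particle release its substrate, had 104, 108 and 96.3 CPM in CON and 83.5, 87.5 and 84.2 CPM in sTREM-1. CON replicate 3 was the lowest of its group but above all of sTREM-1, and the change was 1.21-fold lower (log2 fold change -0.27 ± 0.036 SE, edgeR adjusted p = 2.88e-08). The other two core genes did not pass the test, with log2 fold changes of 0.09 for Dkc1, the pseudouridine synthase dyskerin, and 0.04 for Nhp2. Dkc1 had an adjusted p of 0.0656 in edgeR and was called higher in the replicate block and GC corrected fits.

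**Figure D3:**
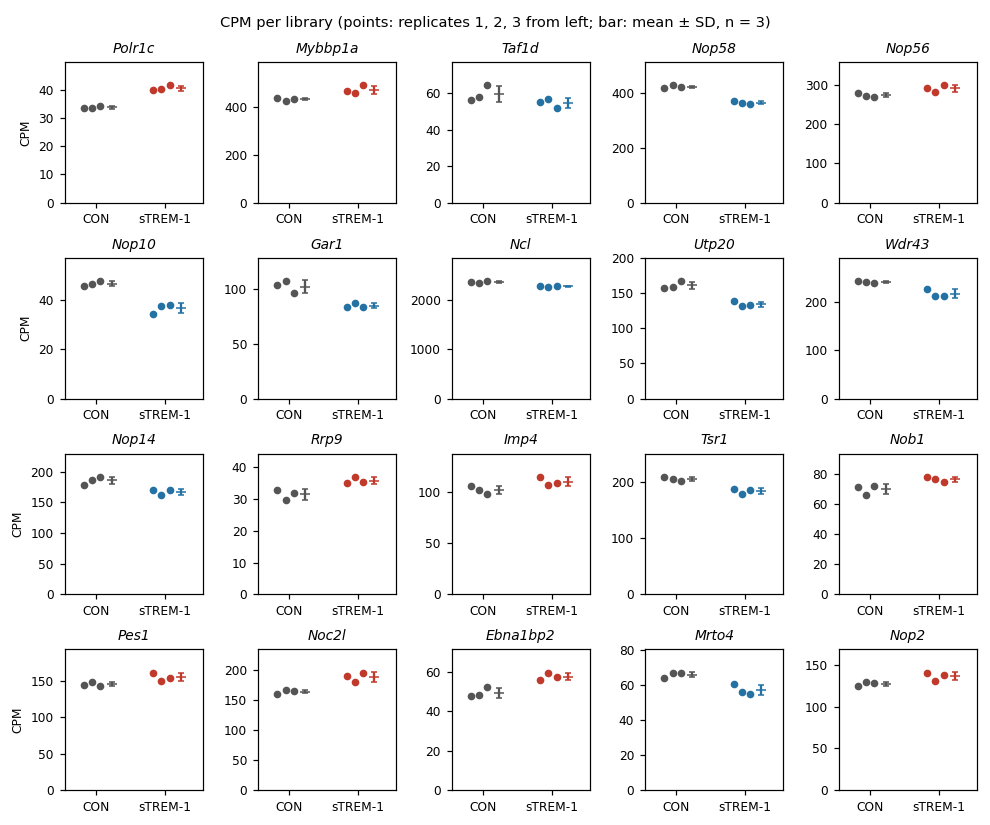
CPM in each library for the 20 genes described with values in every library, with points for replicates 1 to 3 from left and bars for the mean ± SD (n = 3); each axis starts at 0. Nop10, Gar1, Nop58 and Utp20 are lower and Polr1c and Noc2l are higher in all 3 sTREM-1 libraries, while the points of Taf1d overlap.

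Of the 4 nucleolar scaffold and helicase genes, Ncl alone passed the test. It had 2344, 2335 and 2370 CPM in CON and 2282, 2248 and 2264 CPM in sTREM-1. Those ranges did not overlap, but the difference was 1.04-fold (log2 fold change -0.05 ± 0.020 SE, edgeR adjusted p = 0.0341). The call was lost without CON replicate 1 (adjusted p = 0.0864), CON replicate 3 (0.117), sTREM-1 replicate 1 (0.0706) or sTREM-1 replicate 2 (0.0785), and under the edgeR exact test (0.0606). Npm1 had a log2 fold change of 0.03, Nolc1, which encodes a chaperone of small nucleolar particles, -0.06 and Ddx21, which encodes an RNA helicase active in ribosomal RNA transcription, -0.02. All 3 had overlapping groups.

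The SSU processome, the early assembly of the 40S subunit, is the largest role: 6 of its 13 genes fell, 2 rose and 5 were not called. Its median log2 fold change was -0.11, while that of 35 other SSU processome genes outside the list was 0.0040. Utp20, a large repeat protein of the particle, had 157, 159 and 167 CPM in CON and 138, 131 and 132 CPM in sTREM-1. No sTREM-1 library reached the CON range, and it fell by more than the 1.2-fold mark (log2 fold change -0.27 ± 0.030 SE, edgeR adjusted p = 2.49e-10). Wdr43, a WD-repeat protein of the subcomplex that binds the precursor early, had 242, 240 and 238 CPM in CON and 227, 211 and 211 CPM in sTREM-1. The groups were apart, with sTREM-1 replicate 1 nearest to CON, and the change was 1.11-fold lower (log2 fold change -0.15 ± 0.027 SE, edgeR adjusted p = 1.29e-05). Nop14, which is needed for 18S maturation, had 179, 187 and 191 CPM in CON and 170, 162 and 170 CPM in sTREM-1. These ranges were also apart, and the change was 1.11-fold lower (log2 fold change -0.15 ± 0.029 SE, edgeR adjusted p = 2.5e-05). The other 3 lower genes had log2 fold changes of -0.16 for Nat10, the RNA cytidine acetyltransferase, -0.13 for Heatr1 and -0.11 for Wdr75, both of which act in pre-ribosomal RNA transcription and early processing, and none of them had overlapping groups.

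Against the direction of most called SSU processome genes, Rrp9 and Imp4 were higher. Rrp9, which encodes a protein that binds the U3 small nucleolar RNA, had 32.8, 29.6 and 32.0 CPM in CON and 34.9, 36.9 and 35.5 CPM in sTREM-1. No overlap was seen, and the rise was 1.14-fold (log2 fold change 0.18 ± 0.053 SE, edgeR adjusted p = 0.00514), but without CON replicate 2, the lowest library, the adjusted p was 0.0662. Imp4, whose product joins U3 to the precursor, had 107, 102 and 98.2 CPM in CON and 115, 107 and 110 CPM in sTREM-1. The lowest sTREM-1 library lay just above the highest CON library, and the log2 fold change was 0.11 ± 0.034 SE (edgeR adjusted p = 0.00987). That call was lost without CON replicate 3 (adjusted p = 0.116) or sTREM-1 replicate 1 (0.137). Imp3, its partner in the same complex, had a log2 fold change of -0.11 with overlapping groups and was not called. Ddx10, an RNA helicase gene, missed the threshold by little (log2 fold change 0.09, edgeR adjusted p = 0.0501) with groups that did not overlap, and the remaining 3 genes, Utp15, Utp18 and Noc4l, lay between -0.02 and 0.02.

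Of the 5 late 40S maturation factors, 1 rose and 1 fell. Tsr1, which encodes a GTPase-like protein that keeps immature 40S subunits from translation, had 209, 206 and 202 CPM in CON and 188, 178 and 186 CPM in sTREM-1. The groups were well apart, and the change was 1.12-fold lower (log2 fold change -0.16 ± 0.027 SE, edgeR adjusted p = 3.8e-06). Exons of Tsr1 share 1240 bases with exons of Srr on the other strand, and whether the counting used the strand is not given in the sources used here. Srr averaged 33.9 CPM in CON and 32.7 CPM in sTREM-1, and its part in the change of Tsr1 was not tested. Nob1, the endonuclease that makes the final cut of 18S ribosomal RNA, had 71.3, 65.9 and 72.0 CPM in CON and 77.9, 76.3 and 74.8 CPM in sTREM-1. All sTREM-1 libraries were above all CON libraries, and the log2 fold change was 0.13 ± 0.039 SE (edgeR adjusted p = 0.00693). Without CON replicate 2 the adjusted p of Nob1 was 0.111, and without sTREM-1 replicate 1 it was 0.0503. Bysl, Ltv1 and Rrp12, whose products act in 40S maturation and export, had log2 fold changes of -0.04, -0.06 and -0.0020, with overlapping groups.

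The PeBoW complex of Pes1, Bop1 and Wdr12 processes the precursor on the way to the 60S subunit, and 1 of its 3 genes rose. Pes1 had 144, 148 and 143 CPM in CON and 161, 150 and 154 CPM in sTREM-1. The groups did not overlap, with sTREM-1 replicate 1 the highest, and the rise was 1.07-fold (log2 fold change 0.10 ± 0.030 SE, edgeR adjusted p = 0.0096). It was not called without CON replicate 3 (adjusted p = 0.0571) or without sTREM-1 replicate 1 (0.152). Bop1 had a larger but more variable difference, from 41.8 to 47.6 CPM in CON and from 45.5 to 55.4 CPM in sTREM-1. Its groups overlapped (log2 fold change 0.17, edgeR adjusted p = 0.0633), while DESeq2, the edgeR exact test and the replicate block called it higher. Wdr12 had a log2 fold change of -0.05 with overlapping groups.

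The 10 remaining 60S assembly factors split into 3 higher, 4 lower and 3 not called. Noc2l, whose product accompanies pre-60S particles from the nucleolus to the nucleoplasm, had 161, 167 and 165 CPM in CON and 190, 180 and 196 CPM in sTREM-1. Every sTREM-1 library was above every CON library, and the rise was 1.15-fold (log2 fold change 0.20 ± 0.029 SE, edgeR adjusted p = 1.94e-07). Ebna1bp2, a gene for an early 60S assembly factor, had 47.6, 48.1 and 52.5 CPM in CON and 56.1, 59.5 and 57.3 CPM in sTREM-1. The groups were apart, with a rise of 1.17-fold (log2 fold change 0.22 ± 0.044 SE, edgeR adjusted p = 6.57e-05). Nop2, a ribosomal RNA cytosine methyltransferase gene, had 124, 129 and 128 CPM in CON and 140, 131 and 137 CPM in sTREM-1. The groups did not overlap, although sTREM-1 replicate 2 lay close to CON (log2 fold change 0.10 ± 0.031 SE, edgeR adjusted p = 0.0115), and the call was lost without CON replicate 1 (adjusted p = 0.0889) or sTREM-1 replicate 1 (0.127).

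Mrto4, which encodes a placeholder for the ribosomal stalk protein P0, had the most negative fold change of the 60S factors, with 64.0, 66.8 and 66.7 CPM in CON and 60.5, 55.9 and 55.0 CPM in sTREM-1. The groups did not overlap, and the change was 1.15-fold lower (log2 fold change -0.20 ± 0.042 SE, edgeR adjusted p = 0.000105). The annotation holds 2 pseudogenes named after Mrto4 and 7 named after Gtpbp4, so reads that match several copies may have been split. Pseudogenes under other names were not counted for any of the genes. Noc3l, which acts beside NOC2L, had a log2 fold change of -0.12 (edgeR adjusted p = 0.016), but the adjusted p was 0.174 without CON replicate 1 and 0.126 without sTREM-1 replicate 1. Nop16 had -0.11 (edgeR adjusted p = 0.0146), with 0.0593 without CON replicate 1 and 0.0805 without sTREM-1 replicate 2. Nip7, needed for 60S and 18S processing, had -0.09 (edgeR adjusted p = 0.0379), with 0.082 without CON replicate 1, 0.124 without CON replicate 2, 0.149 without sTREM-1 replicate 1 and 0.0645 without sTREM-1 replicate 2. Noc2l and Noc3l, whose products form a pair in yeast, thus moved in opposite directions. Gnl3, Gtpbp4 and Rrs1 had log2 fold changes of -0.0063, -0.04 and 0.03, with overlapping groups.

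The higher and lower genes differed in their median base composition. The median GC content of the transcript was 53.5% in the 10 higher genes and 46.6% in the 16 lower genes, with 51.0% in the 24 that were not called and 49.8% over all tested genes with a transcript. Across the 50 genes, log2 fold change and GC content had a Pearson r of 0.271 and a Spearman rho of 0.251, as a description over genes of the same 6 libraries, against a Pearson r of 0.0444 over 12813 tested genes. After correction of each library for GC content and length, Pearson r was 0.161 over the 50 genes. The corrected fit called 29 genes (58%), 13 higher and 16 lower, against 34.2% of the 12813 genes it tested. It lost Taf1d and Nop2 and gained Dkc1, Npm1, Nolc1, Ddx10 and Bop1. The ranges of GC content overlapped, from 47.6% to 59.8% in the higher genes and from 41.0% to 57.0% in the lower genes. Gar1 with 57.0% GC was the highest of the lower genes, and Imp4 with 47.6% GC was the lowest of the higher genes.

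**Figure D4:**
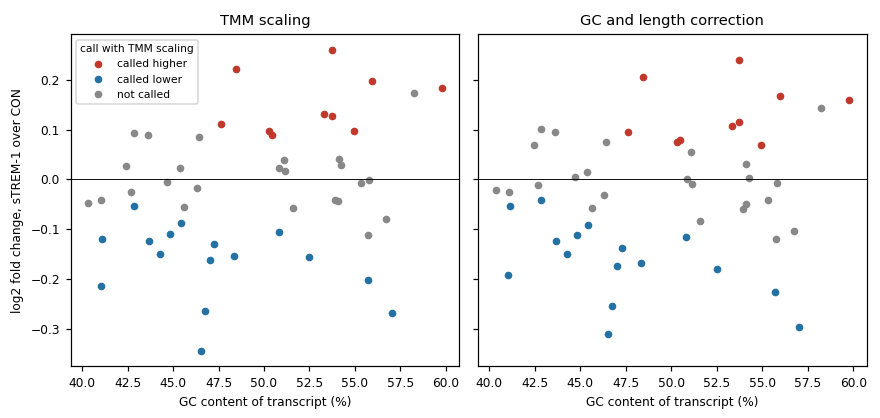
Log2 fold change of each of the 50 genes (sTREM-1 over CON) against the GC content of its transcript (%), before (left) and after (right) correction for GC content and length; colours give the call with TMM scaling in both panels. Pearson r falls from 0.271 to 0.161, and red and blue points stay on their sides of 0.

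Some of the 50 genes carry snoRNAs, the guide RNAs of the box C/D and H/ACA particles, in their introns. In the GENCODE M21 annotation 8 of them had at least 1 snoRNA inside: Taf1d, Nop56, Nop58, Dkc1, Ncl, Wdr43, Tsr1 and Gnl3. Of these 8, 1 rose (Nop56) and 5 fell (Nop58, Wdr43, Tsr1, Taf1d and Ncl), against 9 higher and 11 lower among the other 42. The called share was 75% of the 8 and 47.6% of the 42, against 31.0% of all tested genes. The count table had rows for 13 of their snoRNAs, and 6 of these passed the filter. None was called by edgeR's quasi-likelihood test (adjusted p from 0.116 to 0.97), 1 had an unadjusted p under 0.05, and DESeq2 also called 0. These 6 rows held only 15 to 81 counts a library. Their log2 fold changes ran from -0.54 to 0.71 with standard errors of 0.27 to 0.41. Changes of the size seen in their host genes could therefore not be seen in them. Of 12 tested noncoding snoRNA host genes, which carry such RNAs but encode no protein, 4 fell and none rose. Their called share was 33.3%, near the 31.0% of all tested genes, of which 14.3% were called lower. Snhg12 fell from 84.1, 83.0 and 83.6 CPM in CON to 50.8, 55.2 and 57.9 CPM in sTREM-1, with all sTREM-1 libraries far below CON (log2 fold change -0.61 ± 0.041 SE, edgeR adjusted p = 3.52e-18). Snhg15 had 19.3, 19.6 and 17.6 CPM in CON and 16.0, 13.8 and 15.2 CPM in sTREM-1, again with no overlap (log2 fold change -0.33 ± 0.077 SE, edgeR adjusted p = 0.000533).

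Other genes of ribosome production, listed by role but with earlier results of these data known, also held genes of both directions. Of 107 tested genes in the RNA polymerase I, SSU processome, late 40S, 60S and exosome lists, 39 were called (36.4%, beside 31.0% of all tested genes and 41.9% of those in the range of levels of the 50 genes), 17 higher and 22 lower, and their median log2 fold change was 0.0015. Among 12 other RNA polymerase I genes, 1 rose (Cd3eap, a subunit gene, log2 fold change 0.24) and 3 fell, among them Polr2k with -0.38 and Polr2l with -0.27, small subunits shared by the nuclear polymerases. Among 35 other SSU processome genes, 6 rose and 10 fell, with Ddx49 at 0.20 and Ngdn at 0.20, and Utp23 at -0.27 and Pwp2 at -0.21. Among 8 other late 40S genes, Rps19bp1 fell (-0.17). Among 38 other 60S genes, 8 rose and 6 fell, with Rrp1 at 0.20 and Wdr74 at 0.20, and Tma16 at -0.36 and the AAA ATPase gene Mdn1 at -0.32. Of 14 RNA exosome genes, which trim and degrade the precursor, 2 rose (Mphosph6, 0.12, and Skiv2l2, 0.08) and 2 fell (Exosc1, -0.14, and the nuclease gene Dis3, -0.12). Of 22 RNA polymerase III genes, 31.8% were called, 5 higher and 2 lower. Maf1, a repressor of that polymerase, was at 0.29, Polr3b at 0.22, Crcp at -0.21 and Gtf3c6 at -0.18.

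Several of these counts moved by over 1.5 times when a single library was left out, while the RNA polymerase III count stayed between 6 and 8. Other RNA polymerase I genes called were 2 without CON replicate 2. Other SSU processome genes called were 9 without CON replicate 1, 10 without sTREM-1 replicate 1 and 9 without sTREM-1 replicate 3. Other 60S genes called were 9 without sTREM-1 replicate 1, exosome genes 2 without sTREM-1 replicate 1 and 1 without sTREM-1 replicate 2, and the late 40S gene was not called without CON replicate 1 or sTREM-1 replicate 1.

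Ribosomal RNA itself, the product of the pathway, was covered by few rows. Of 9 rows listed for ribosomal RNA and the RNAs that process it, 4 were in the table, and Rn5s and Rn4.5s had no count in any library. Rmrp, the RNA of the ribonuclease that cuts the precursor between its 18S and 5.8S parts, had counts of 21, 16 and 21 in CON and 8, 51 and 62 in sTREM-1. Rpph1, the RNA of ribonuclease P, which matures transfer RNA, had counts of 37, 10 and 20 in CON and 27, 100 and 94 in sTREM-1. In both, sTREM-1 replicates 2 and 3 were high and sTREM-1 replicate 1 was inside or below the CON range, and neither was called (edgeR adjusted p = 0.167 and 0.0791), with 1 of the 2 at an unadjusted p under 0.05 and 0 called by DESeq2. Without sTREM-1 replicate 1 both were called, and without CON replicate 1 it was 1.

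Sets of structured RNAs outside the list were looked at after these values were seen, and sTREM-1 replicates 2 and 3 were the highest libraries for Rn18s-rs5 and Rn7sk but not for Rn7s1. Rn18s-rs5, a row related to 18S ribosomal RNA, had counts of 199, 213 and 252 in CON and 250, 394 and 472 in sTREM-1. Rn7sk, a nuclear RNA made by RNA polymerase III, had 72, 84 and 74 in CON and 122, 239 and 258 in sTREM-1. It was called higher (log2 fold change 1.39 ± 0.29 SE, edgeR adjusted p = 0.00291), with an adjusted p of 0.0874 without CON replicate 1 and 0.0756 without CON replicate 3. Rn7s1, a row of the signal recognition particle RNA family, had 2, 3 and 4 in CON and 12, 9 and 9 in sTREM-1, too few for the filter, with sTREM-1 replicate 1 the highest. Rn7s2, of the same family, had 2, 0 and 4 in CON and 2, 8 and 9 in sTREM-1. The part of these RNAs in the results was not tested. Leaving out sTREM-1 replicates 2 and 3 together keeps 1 sTREM-1 library against 3 of CON, so the spread in that fit comes from CON alone and the lone library is assumed to vary in the same way. Under that assumption 21 of the 50 genes (42%) were called, 12 higher and 9 lower, against 18.1% of the 14961 genes tested.

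**Figure D5:**
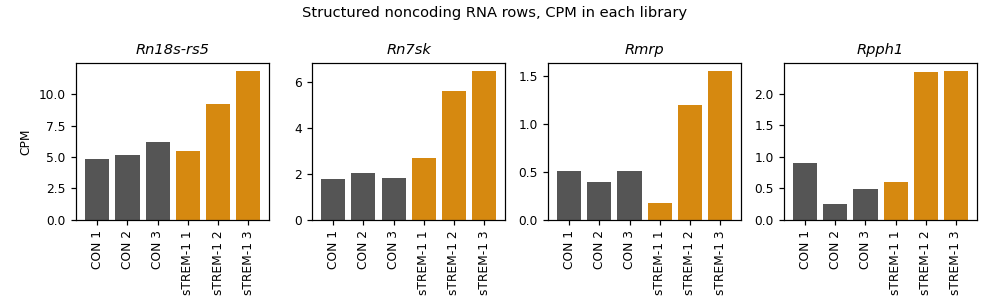
CPM in each of the 6 libraries for 4 rows of structured noncoding RNAs, in grey for CON and orange for sTREM-1; each axis starts at 0. In every panel sTREM-1 replicates 2 and 3 are the highest bars, and sTREM-1 replicate 1 lies closer to the CON libraries than they do.

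Position on the genome overlapped with other genes for 19 of the 50, whose exons share bases with an exon on the other strand, and 11 of these 19 were among the 26 called. For comparison, 52% of the 50 genes were called, 31.0% of all tested genes and 41.9% of those in the range of levels of the 50. Besides Taf1d and Tsr1, Noc2l shares 598 bases with Samd11 and Mybbp1a 131 bases with Spns2. Spns2 averaged 0.122 CPM in CON and 0.173 CPM in sTREM-1, against 434 and 474 CPM for Mybbp1a. Samd11 averaged 0.529 CPM in CON and 0.557 CPM in sTREM-1, against 164 and 188 CPM for Noc2l. The part of these overlaps in the calls was not tested.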

How the data were processed

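RNA of BV2 cells was sequenced in 3 CON and 3 sTREM-1 libraries. According to the paper's methods, the authors checked reads with FastQC, quantified them with RSEM and used edgeR, and the submitters' processing notes name HISAT2 2.0.4 with human builds although the rows carry mouse symbols. The annotation and the strand setting of the counting are not given in the sources used here. The deposited values are raw counts, whole numbers for each gene symbol, and every column was used. Of 46095 rows, 23335 had no count in any library.

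Low genes were removed with filterByExpr at a minimum count of 10, and libraries were scaled by TMM. The groups were then compared in edgeR 4.0.16 (R 4.3.3) by its quasi-likelihood test without a covariate, and a gene was called where its adjusted p (Benjamini-Hochberg) was under 0.05. The p-values come from a model across genes, since an exact test of 3 against 3 libraries cannot go below 0.1. CPM values are the counts per 1000000 counts of the library with TMM factors. Standard errors follow from each log2 fold change and its F value. The steps were tested on simulated data. Transcript length, GC content, snoRNAs and overlaps come from GENCODE M21, and promoters from RefSeq.

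The 50 genes and the other lists were chosen with earlier results of these data known. Genes given in every library are the called genes of smallest p in each role, at most 3, and any called gene opposite in direction to the median of its role. In the other lists, at most 2 called genes of largest rise and 2 of largest fall were named. Rn18s-rs5, Rn7sk, Rn7s1, Rn7s2, Csf1r, Fcer1g and genes on the other strand were named after their values were seen. Alternatives were RLE or total count scaling, other filters, DESeq2 1.42.0, the edgeR exact test, a replicate block, a loess correction for GC content and length (span 0.3), leaving out each library and other thresholds. Leaving out sTREM-1 replicates 2 and 3 together was added after seeing the data. At these depths (40070633 counts or more) counting error differs among the 50 genes. Polr1e held 309 to 378 counts a library and Npm1 held 98170 to 113976. Such error limits genes and RNAs of few counts the most.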

Additional observations from a re-analysis of the deposited data

How the results depend on the processing

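No called gene of the 50 changed direction under any alternative that kept replicates in both groups, and 16 of the 26 stayed called in all 6 fits that left out a library. Those fits called 18 to 25 of the 50 genes, 6 to 12 higher and 12 to 16 lower, and 3708 to 3999 genes in all. RLE scaling, the stricter filter, DESeq2 and the edgeR exact test each called 26, total count scaling 27 and no filter 25. Over all genes tested in those fits, 28.5% to 33.6% were called, and 18.3% with no filter. The median log2 fold change of the 50 genes ran from -0.038 to -0.015. With the replicate block 29 of the 50 and 4711 genes in all were called, and 30 of the 50 with the block and the GC correction. The shares over all tested genes were 33.4% and 35.1%. Over all tested genes, deviations from the group mean had correlations of -0.0178, -0.0335 and -0.0137 between libraries that share a number. These values weigh genes of few and many counts alike, so they cannot settle whether the numbers pair the libraries.

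Requiring a 1.2-fold change left 3 of the 50 genes, 0 higher and 3 lower, and 1509 of all 14120 tested genes. It left 2 other RNA polymerase I, 1 SSU processome, 0 late 40S, 2 other 60S, 0 exosome and 1 RNA polymerase III genes. Without sTREM-1 replicates 2 and 3 the sTREM-1 arm is a single library, assumed to vary like CON, which alone gives the spread. That fit called 2714 genes, 9 of the 50 as lower, with 0 other RNA polymerase I, 5 SSU processome, 8 other 60S and 1 exosome genes and 2 noncoding snoRNA hosts. An unadjusted p under 0.05 gave 11 RNA polymerase III genes, 2 late 40S genes and 1 of the rows Rmrp and Rpph1. Late 40S genes called were 2 under total count scaling, the stricter filter, DESeq2, the replicate block and the GC correction with or without it. Of Rmrp and Rpph1, which are not ribosomal RNA themselves, 2 were called with no filter and 1 with the edgeR exact test or the GC correction.

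Leaving out each library gave 2 to 4 other RNA polymerase I, 9 to 14 other SSU processome, 0 to 1 late 40S, 9 to 16 other 60S and 1 to 4 exosome genes. It gave 0 to 2 of the rows Rmrp and Rpph1. Genes near 0 that were not called changed sign. The GC correction gave Polr1b -0.0099 (-0.0094 with the block) and Gnl3 0.0052 (0.0055 with the block), and no filter gave Rrp12 0.00086. Leaving out a library gave Polr1b -0.023 to 0.051, Polr1e -0.0090 to 0.062, Noc4l -0.060 to 0.045, Rrp12 -0.040 to 0.050 and Gnl3 -0.023 to 0.015. In the fit with a single sTREM-1 library, Utp15 was -0.0024, Ltv1 0.0010, Rrp12 0.032 and Gnl3 0.012. Depth limits Rmrp and Rpph1, which held 8 to 100 counts a library.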
